A study of Mus musculus with 20 samples.

Results

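Regions called open in all 12 ATAC-seq libraries numbered 40870 of 193427 (21.1%), where a region is a union of called intervals that share at least 1 bp. ATAC-seq finds open chromatin as the places where a transposase can cut, and each library had its own list of called intervals with their summits. The members were chosen by these calls alone, so their number, and their width, summits and position set against other regions, describe the choice and carry no test. The rule asks only for a call in each library and compares no groups, so called length and summits inside the regions were tested between groups, among regions that no library lacks. The study used C57BL/6 mouse embryonic stem cells (ESC) and cultures derived from them through embryoid bodies and labelled cardiomyocyte (CM), each wild type (WT) or Mettl3 knockout (KO). The labels state neither the day of the cultures nor the number of KO clones. There were 3 ATAC-seq libraries per group in 4 groups, and chromatin-associated RNA and its m6A each had 1 sample per group. Mettl3 encodes the catalytic subunit of the nuclear complex that writes m6A, a methylated adenosine, on RNA.

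Facts of the whole set bear on what follows. ESC libraries held between 107125 and 119307 called intervals, CM WT libraries between 85443 and 94617, and CM KO libraries between 70132 and 76381. Read depth is not given, and the background pileup implied by the lists ran from 1.58 to 2.53 reads per base. The CM KO library of replicate 3 is labelled as RNA while its file is an interval list like the others. The 6 cardiomyocyte markers summed to 6.37 RPKM (reads per kilobase, scaled to library size) in CM WT and to 0.598 in CM KO, beside 0.793 in ESC WT and 0.852 in ESC KO, with Tnnt2 and Nkx2-5 absent from both ESC tables. The RNA tables list no value of 0, so a gene absent from a table but present in another was taken as 0 there, and whether it was measured as 0 is not known. The 4 ESC markers with a value summed to 22.3 RPKM in ESC WT and 25.2 in ESC KO, and to 3.22 in CM WT and 5.55 in CM KO, with 1 of them at 1 RPKM or more in CM WT and 3 in CM KO. In CM WT all 4 fibroblast markers (23.8 RPKM in all), all 4 endoderm markers (13.4) and all 4 blood markers (40.7) were listed, and in CM KO 4, 3 and 4 of them (6.60, 5.10 and 45.1, with Alb absent). In ESC WT and ESC KO these 3 marker sums lay between 0.0383 and 0.196 RPKM. In such bulk cultures fewer cells of a type and less RNA or less accessibility per cell cannot be told apart. Mettl3, which overlaps another gene, stood at 1.73 RPKM in ESC WT and 1.28 in ESC KO, and at 1.18 in the WT and 1.07 in the KO cultures of CM. The labels do not give the deleted part of the gene, so this level does not check the genotype. From here on, 4 values of RNA, m6A or called length given in a row follow the order wild-type ESC, knockout ESC, wild-type CM, knockout CM.

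Chromatin is open where nucleosomes are moved or lost, chiefly at gene starts and at bound regulatory elements. Starts of genes that every cell uses usually lie in CpG islands, stretches rich in the CG dinucleotide that bind general factors such as SP1, NRF1, the ETS family and YY1. Many starts of tissue genes lack an island and open only where their factors are present, and sites of CTCF, which folds the genome with cohesin, tend to be open in most cell types. ESCs are held in the pluripotent state by Pou5f1, Sox2 and Nanog, while cardiac cells use factors such as Gata4, Tbx20 and Hand2 to drive the genes of the contractile sarcomere.

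The promoter sequences of 6 genes show the letters at such starts and are printed because the results return to these genes. They are RefSeq sequences of GRCm38.p6, the assembly behind mm10, written from 250 bases before to 50 after the start on the strand of the gene. Capitals mark the searched motifs, which on the other strand read as their reverse complement, so that CCGCCC is GGGCGG on the opposite strand. The first 5 lie under a region called in all 12 libraries and the last lies under none.
Psmb6, chr11:70525107-70525406, plus strand: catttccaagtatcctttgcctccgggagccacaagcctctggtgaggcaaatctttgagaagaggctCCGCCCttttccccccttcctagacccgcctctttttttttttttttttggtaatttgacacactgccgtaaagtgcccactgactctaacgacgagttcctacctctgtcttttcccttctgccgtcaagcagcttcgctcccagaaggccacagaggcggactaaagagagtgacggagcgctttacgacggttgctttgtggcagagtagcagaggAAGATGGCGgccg
Mettl3, chr14:52305075-52305374, minus strand: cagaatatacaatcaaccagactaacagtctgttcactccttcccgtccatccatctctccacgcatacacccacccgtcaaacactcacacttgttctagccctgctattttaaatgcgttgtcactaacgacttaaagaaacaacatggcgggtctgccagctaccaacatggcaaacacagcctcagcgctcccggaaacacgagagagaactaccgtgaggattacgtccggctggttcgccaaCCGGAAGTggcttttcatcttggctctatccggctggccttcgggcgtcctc
Dusp1, chr17:26508423-26508722, minus strand: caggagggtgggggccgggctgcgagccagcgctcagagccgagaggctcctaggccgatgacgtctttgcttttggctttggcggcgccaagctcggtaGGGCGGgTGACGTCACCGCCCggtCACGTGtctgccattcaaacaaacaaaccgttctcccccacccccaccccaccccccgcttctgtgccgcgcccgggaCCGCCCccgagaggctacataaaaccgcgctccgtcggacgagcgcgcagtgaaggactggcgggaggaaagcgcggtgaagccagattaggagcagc
Tbx20, chr9:24774254-24774553, minus strand: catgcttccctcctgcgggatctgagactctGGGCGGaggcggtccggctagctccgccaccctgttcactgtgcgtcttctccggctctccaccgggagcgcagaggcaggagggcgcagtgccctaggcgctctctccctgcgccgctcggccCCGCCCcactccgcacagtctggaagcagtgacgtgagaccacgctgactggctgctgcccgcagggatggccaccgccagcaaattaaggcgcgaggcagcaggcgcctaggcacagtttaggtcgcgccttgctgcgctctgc
Apob, chr12:7977427-7977726, plus strand: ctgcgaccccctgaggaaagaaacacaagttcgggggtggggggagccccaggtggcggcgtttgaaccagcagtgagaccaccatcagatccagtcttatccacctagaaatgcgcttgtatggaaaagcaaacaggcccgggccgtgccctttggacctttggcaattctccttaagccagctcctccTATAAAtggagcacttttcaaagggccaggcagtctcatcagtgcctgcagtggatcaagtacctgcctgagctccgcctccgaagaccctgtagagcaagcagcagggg
Myh6, chr14:54966558-54966857, minus strand: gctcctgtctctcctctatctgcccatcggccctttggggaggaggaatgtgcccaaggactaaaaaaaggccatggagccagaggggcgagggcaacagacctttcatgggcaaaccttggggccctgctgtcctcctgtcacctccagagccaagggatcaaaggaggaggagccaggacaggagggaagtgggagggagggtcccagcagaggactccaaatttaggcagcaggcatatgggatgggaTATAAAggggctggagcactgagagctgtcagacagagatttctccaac
Psmb6 encodes a subunit of the proteasome, and its promoter holds GGGCGG (the GC box of the SP1 family) and, after the start, AAGATGGCG (a YY1 motif). Mettl3 holds CCGGAAGT (an ETS motif) at the start. Dusp1, a phosphatase gene induced within minutes of a stimulus, holds GGGCGG 3 times beside TGACGTCA (the cAMP response element) and CACGTG (an E-box). Tbx20, a T-box factor of the heart, holds GGGCGG on each strand. Apob, the structural protein of lipoproteins made in liver and yolk sac endoderm, and Myh6, a cardiac myosin heavy chain, each hold TATAAA (the word of the TATA box), in Apob 60 bases before the start and in Myh6 from base 2 after it. The ratio of observed to expected CG dinucleotides was 0.921 at Dusp1, 0.897 at Mettl3, 0.745 at Tbx20, 0.727 at Psmb6, 0.374 at Apob and 0.0833 at Myh6.

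The numbers of these regions were high at both extremes of sharing: 43801 regions were called in 1 library, 6978 in 11 and 40870 in all 12. Regions just outside the rule, called in 11 libraries, had a median width of 507 bp, beside 736 bp for regions called in all 12 (quartiles 537 and 997, range 192 to 4663). The mean number of summits per calling library was 1.16 in regions called in 11 libraries and 1.52 in those called in all 12. Wider regions have more bases on which a call can fall, so the width is in part a product of the rule. A library of a CM group was the missing one for most regions called in 11: CM KO for 46.1% and CM WT for 42.4%, against 7.38% for ESC WT and 4.16% for ESC KO.

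**Figure D1:**
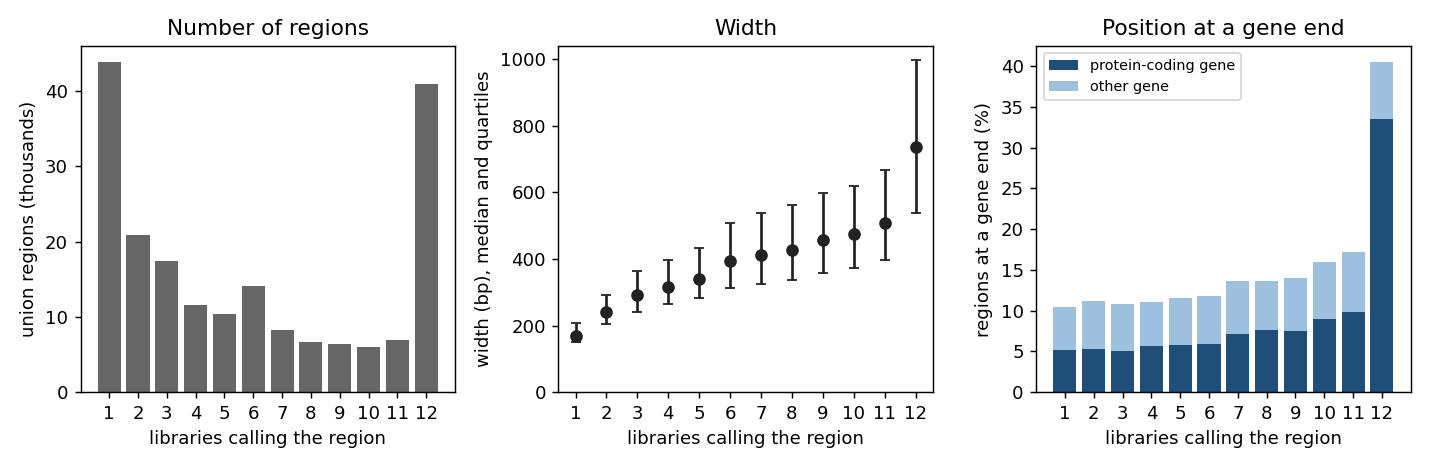
Number of union regions, width (median with quartiles) and share at a gene end, by the number of ATAC-seq libraries that called the region. The share at an end of any gene lies between 10.502% and 17.2% for regions called in 1 to 11 libraries and at 40.5% for those called in all 12.

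Gene ends were the place where sharing was most frequent. A gene end was counted as either end of a RefSeq gene span plus or minus 1 kb, because the table of all genes gives no strand. Of the shared regions, 33.5% lay at an end of a protein-coding gene (13708 regions), 6.91% at an end of another gene, 35.6% inside a gene and 24.0% outside genes. Any gene end held 40.5% of them, beside 17.2% of regions called in 11 libraries and 17.9% of all regions. Read the other way, 59.9% of all regions at ends of protein-coding genes were called in all 12 libraries, 24.1% of those at ends of other genes, 15.0% of those inside genes and 15.8% of those outside genes. The step between 11 and 12 libraries, from 17.2% to 40.5%, exceeded the change from 1 to 11, which was from 10.502% to 17.2%.

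Regions at ends of protein-coding genes were the widest and most complex, with a median of 970 bp and 1.89 summits per library. Those inside genes had 639 bp and 1.33 summits, and those outside genes 624 bp and 1.28. A single summit in every library was found in 15.6% of regions at protein-coding gene ends and in 46.3% of those outside genes. The reverse pattern, at least 2 summits in every library, held for 28.0% and 5.12%.

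The open stretch common to all libraries was shorter than the region. At least 1 base was called in all 12 libraries at once in 40144 of the 40870 regions (98.2%), and this common stretch had a median of 292 bp, or 45.5% of the region. In the remaining 726 regions, libraries called different stretches that only joined through others. The position of the highest summit was more stable than the edges, with a median range of 75 bp over the 12 libraries. It stayed within 100 bp in 60.5% of regions and ranged over more than 500 bp in 6.43%.

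For 12539 shared regions a RefSeq start with its strand could be set against the summit. The highest summit had its median upstream of the start in all 12 libraries, and in each of them between 64.7% and 67.0% of summits lay within 150 bp. The median was 26 to 27 bp in ESC libraries and 23 to 25 bp in CM libraries.

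**Figure D2:**
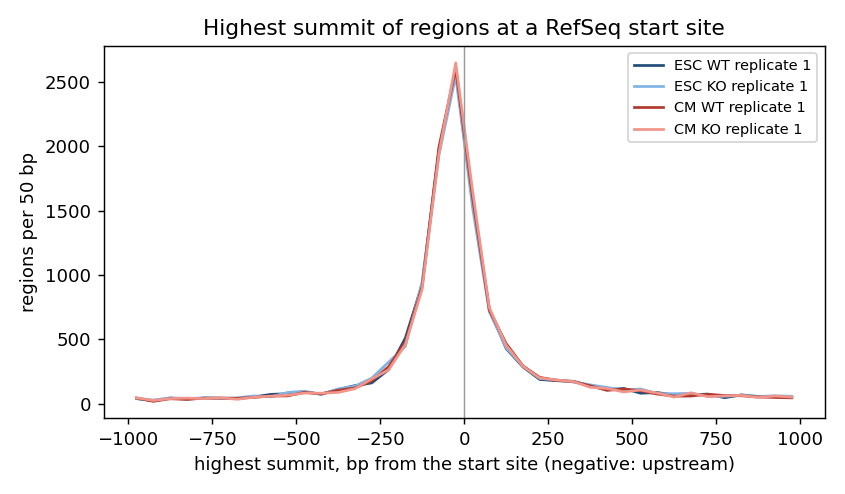
Distance of the highest summit from the RefSeq start site, in 50 bp bins, for the 12539 shared regions at a start site, in replicate 1 of each group. The 4 curves peak just upstream of the start and lie almost on each other.

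Several of the widest shared regions lay outside usual promoters. Both mitochondrial regions among the 10 widest were called over most of their length in every library. The wider, chrMT:11019-15681 (4663 bp), lay at gene ends, as defined above, of CYTB, ND4, ND4L, ND5 and ND6. The other, chrMT:1817-4786 (2970 bp), lay at those of COX1, ND1 and ND2. The window of a gene end reaches beyond the gene, so a gene named here need not lie under the region. Mitochondrial DNA carries no nucleosomes. Rn18s-rs5, a ribosomal RNA copy at chr17:39843031-39846383, had 3172 to 3346 called bp in the 12 libraries. Such sequence has many copies in the genome, so the placement of its reads is uncertain. Among protein-coding genes the widest were at Tfeb, a regulator of lysosome genes (3016 bp), Hsp90aa1, a heat-shock chaperone (2990 bp), Kmt2e, a chromatin regulator (2853 bp), and Rims2, a synaptic vesicle protein (2803 bp).

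Hsp90aa1 at chr12:110687933-110690922 was called over 2291, 2610 and 2387 bp in ESC WT and over 1747, 1847 and 2081 bp in ESC KO. It was called over 995, 692 and 1120 bp in CM WT and over 598, 990 and 477 bp in CM KO. All ESC libraries were above all CM libraries. Kmt2e at chr5:23432588-23435440 was more even, with 2087 to 2324 bp in WT ESC and 2184 to 2402 in KO ESC, and 2000 to 2183 in WT CM and 1824 to 2007 in KO CM.

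High folds over local background in every library were found both at gene ends and elsewhere. Of the 10 regions whose lowest rank over the libraries was highest, 9 had a single summit in every library, and 5 were outside genes, 4 inside Chl1, Gm30821, Gm33838 and Camk1d, and 1 at a gene end. The first of them, chr3:5860374-5860867, had summit folds between 33.1 and 37.6 in all 12 libraries. Several had nearly equal called lengths in every library, such as 259 to 274 bp for the region inside Camk1d. No regions of repeated sequence were filtered out here, and the placement of reads in these 10 regions was not tested. Over a wider class, 1169 shared regions (2.86%) were above the 95th percentile of fold in every library. Of these 1169, 68.5% lay at a gene end, beside 40.5% of all shared regions.

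CG-rich sequence went with membership. Of 21263 promoters of protein-coding genes, 12515 (58.9%) lay under a shared region, 1853 under another region and 6895 under none. Their median GC content was 62.3%, 55.0% and 45.7%, with a median of 22, 7 and 2 CG dinucleotides in 300 bases. An observed to expected CG ratio over 0.6, the usual mark of a CpG island, was found in 75.5%, 21.7% and 4.08%, and in 47.6% of all promoters. Dusp1 and Mettl3 are of the first kind, and Apob is one of the shared regions without an island.

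Motifs of general factors were more frequent in promoters under shared regions, as letters in a CG-rich window. GGGCGG on either strand stood in 68.8% of promoters under a shared region, 34.8% of those under another region, 8.17% of those under none and 46.2% of all. The NRF1 motif GCGCATGC stood in 5.43%, 2.05%, 0.450% and 3.52%, and the ETS motif CCGGAAGT in 8.25%, 1.19%, 0.566% and 5.15%. The YY1 motif AAGATGGCG stood in 3.00%, 0.0540%, 0.189% and 1.83%. TGACGTCA stood in 3.32%, 1.03%, 0.580% and 2.23%, CACGTG in 10.3%, 7.56%, 3.41% and 7.84%, and ACTACAATT, part of the ZNF143 motif, in 0.743%, 0.216%, 0.160% and 0.508%. Each of these was highest under shared regions.

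TATAAA and AGATAA ran the other way. TATAAA stood in 5.87% of promoters under a shared region, 10.9% under another region, 25.3% under none and 12.6% of all, and the GATA motif AGATAA in 5.19%, 10.6%, 17.5% and 9.65%. ATTTGCAT, the octamer of POU factors (1.45%, 1.40%, 2.12% and 1.66%), CCAAT (38.4%, 31.1%, 39.7% and 38.2%) and AGGTGGCAG, a CTCF word (0.799%, 0.917%, 0.769% and 0.7995%), showed no such order. Words of different CG content follow base composition, whose part in these shares was not tested. Overlapping matches of different motifs were each counted.

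At the level of genes, 13684 of 21900 protein-coding genes (62.5%) had a shared region at an end, 2588 had only another region and 5628 had none. Among 10913 of them with a known strand, the shared region was at the start only for 83.0%, at the far end only for 3.77% and at both ends for 13.2%. Some genes start inside their annotated span: adding shared regions over a RefSeq promoter raised the number of genes to 14356 (65.6%), Mettl3 among them.

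Genes of the basic machinery of the cell nearly all had a shared region, as the plot by gene list shows. All 40 genes of RNA polymerase II and its general factors, all 30 cell cycle genes and all 32 spliceosome genes did. So did 42 of 43 ribosomal protein genes and 30 of 31 proteasome genes, and the exceptions, Rps2 and Psma6, have a shared region over a promoter. Respiratory chain genes had one in 32 of 35 cases, m6A machinery genes in 19 of 20, chromatin regulators in 27 of 30, and CTCF and cohesin genes in 12 of 15. Rad21 and Nipbl of the cohesin complex were listed at 2.50 to 4.49 and 1.75 to 2.19 RPKM with no called region at their ends. Both overlap another gene, and no promoter of either was in the table.

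Lists of lineage genes were spread more widely. Immediate early genes, which respond to stimuli within minutes, had a shared region in 18 of 19 cases, neural genes in 13 of 16 and pluripotency genes in 24 of 30. Cardiac transcription factors had one in 11 of 17 cases and Hox genes in 14 of 22, close to the 62.5% of all protein-coding genes. Endoderm genes had 9 of 16, fibroblast genes 8 of 16, blood and endothelium genes 7 of 18 and sarcomere genes 7 of 24. Genes of adult liver, pancreas and skin had 5 of 20 and those of retina and olfaction 1 of 19, Gnat2.

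**Figure D3:**
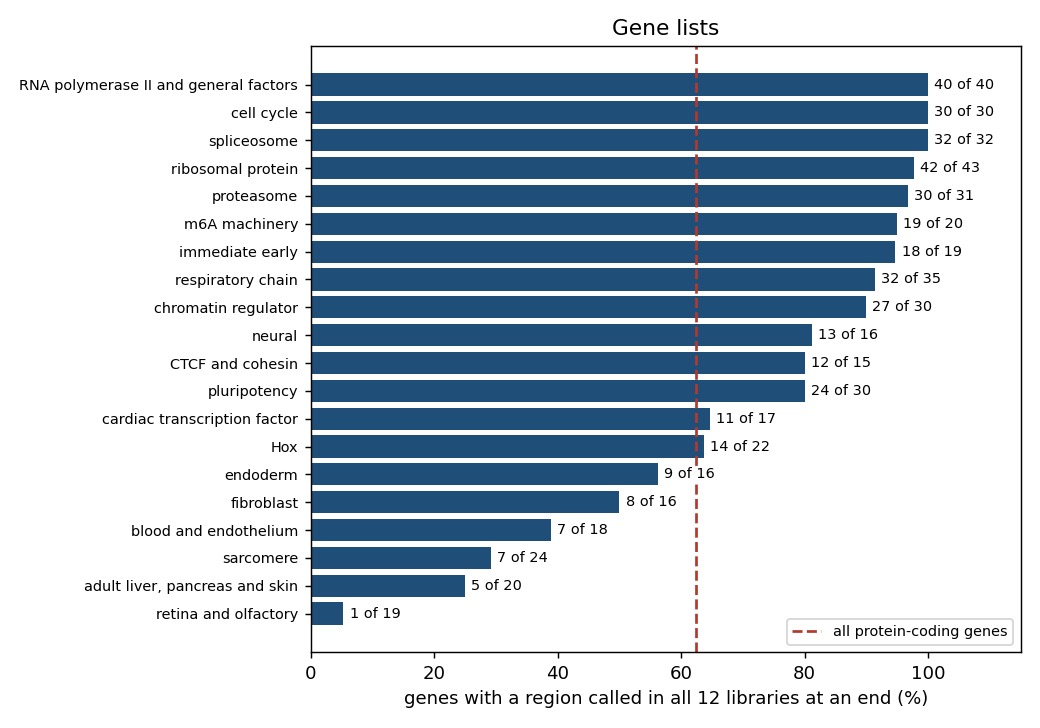
Share of genes in each list with a region called in all 12 libraries at an end, with counts. The dashed line marks the 62.5% of all protein-coding genes. Lists of basic machinery lie at 80.0% to 100% and the sarcomere list at 29.2%.

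Chromatin RNA, which is rich in nascent transcripts, was higher at genes with a shared region. Genes in none of the 4 RNA tables were left out, which removed 6.99% of genes with a shared region, 33.0% of those with another region and 69.7% of those with none. Of the 12728 listed genes with a shared region, 32.2% were at 1 RPKM or more in WT ESC and 28.3% in KO ESC, and 27.3% in WT CM and 30.9% in KO CM. For genes with another region the shares were 7.91%, 6.87%, 7.79% and 7.33%, and for genes with no region 6.80%, 5.92%, 6.62% and 7.21%. Each group had 1 library, so these values have no replicate check.

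Genes transcribed in every group nearly all had a shared region. Of 2736 genes at 1 RPKM or more in all 4 groups, 2584 (94.4%) had a shared region. The share of genes with one rose with RNA level, from 42.2% below 0.01 RPKM in ESC WT to 93.5% between 0.5 and 1 RPKM, and from 32.7% to 93.4% in CM WT, and above that it stayed between 90.6% and 94.6% in all 4 groups. Levels also differed by the end of the gene: genes with the shared region at the start only had a median of 0.566 RPKM in ESC WT, and those with it at the far end only 0.0359.

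Wider regions went with more RNA, weakly. From the narrowest to the widest of 4 equal width classes, the share of genes at 1 RPKM or more rose from 24.7% to 37.5% in ESC WT and from 20.3% to 40.0% in CM KO. Across the 12728 genes, Spearman's rho of width and RPKM was between 0.133 and 0.199 in the 4 groups, and genes are not independent replicates.

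A shared region at an end of a gene did not require RNA of that gene. Either end counted, so the region may lie at the far end or at a neighbouring gene, which was not separated here. In ESC WT 1314 of the 12728 genes (10.3%) were below 0.01 RPKM, in CM WT 599 (4.71%), and in all 4 groups 271 (2.13%). Krt14 and Lor, structural proteins of skin, had a shared region and at most 0.0373 RPKM in any group.

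**Figure D4:**
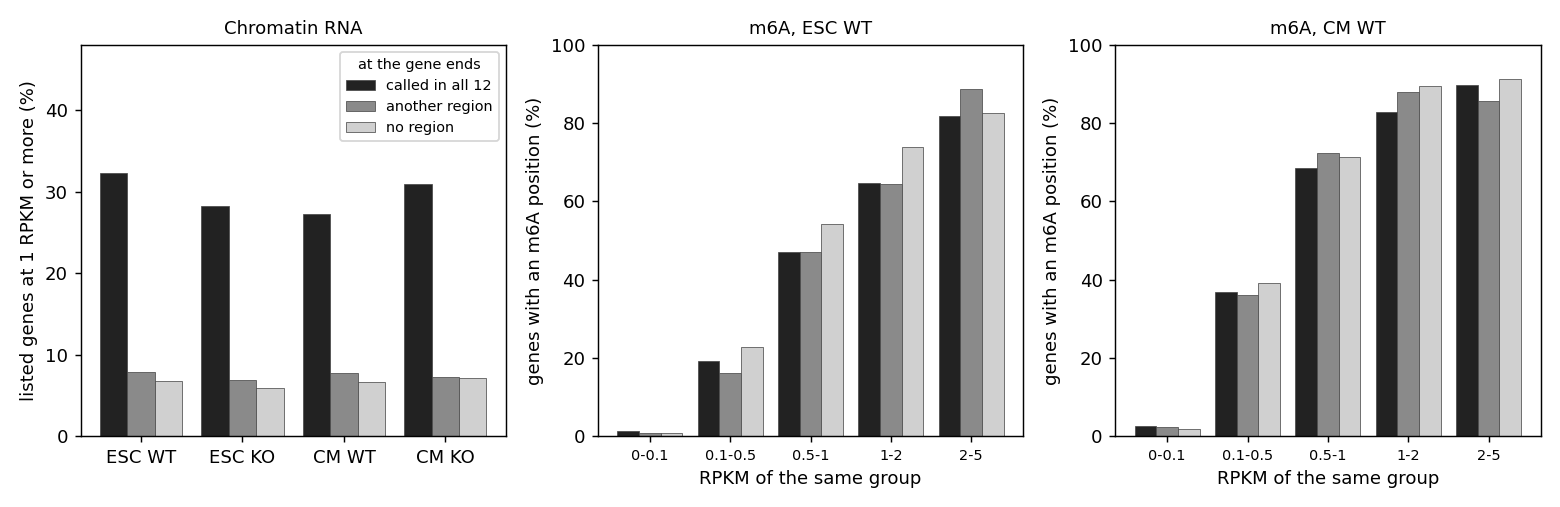
Left, share of listed protein-coding genes at 1 RPKM or more by the region at their ends. Middle and right, share of genes with at least 1 listed m6A position by RPKM range in ESC WT and CM WT. In the left panel genes with a shared region stand at 27.3% to 32.2% and the others at 5.92% to 7.91%. Within an RPKM range the m6A shares of the 3 classes lie closer together than over all genes.

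By the rule, 24 pluripotency genes have a region at an end of the gene that was called in every CM library, where the RNA of several was lower. Tdgf1, a co-receptor of Nodal signalling, stood at 30.2 and 22.1 RPKM in ESC WT and ESC KO and at 3.41 and 4.88 in CM WT and CM KO. Its shared regions lie at a gene end, but no RefSeq promoter of Tdgf1 lay under a shared region. Pou5f1, the octamer factor of pluripotency, stood at 5.76, 5.10, 1.34 and 1.32 RPKM, and Zfp42, a zinc finger marker of naive ESCs, at 9.20, 11.2, 0.837 and 2.02. The shared region at Pou5f1, chr17:35503804-35505499, was called over 1654, 1492 and 1594 bp in ESC WT and 1476, 1695 and 1641 bp in ESC KO. It was called over 1590, 1309 and 1309 bp in CM WT and 1382, 1189 and 1367 bp in CM KO, so the groups overlap through 1 CM WT library. The groups at Sox2, a partner of Pou5f1 in no RNA table, met in the same way, with 1423 to 1582 bp in ESC and 847 to 1433 bp in CM. The pluripotency genes with no shared region at an end were Dppa2, Dppa3, Dppa4, Esrrb, Lefty2 and Nr5a2, and Esrrb has one over a promoter.

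For cardiac factors the RNA was lower in ESCs, where the regions were also called in every library. Tbx20, whose promoter is printed above, was called over 824, 652 and 710 bp in WT ESC and 649, 819 and 625 bp in KO ESC, and 812, 702 and 707 bp in WT CM and 662, 821 and 689 bp in KO CM. All 4 groups overlap, while its RNA stood at 0.0314, 0.0200, 2.01 and 1.78 RPKM. Gata6, a factor of heart and endoderm, stood at 0.0194, 0.0226, 2.09 and 1.64 RPKM with a region in all 12 libraries. Hand2 was absent from both ESC tables and stood at 1.76 and 0.929 RPKM in CM WT and CM KO. Its shared region lies at a gene end, but no RefSeq promoter of Hand2 lay under a shared region. Gata4, Hand1 and Tbx5 had a called region at an end, but none in all 12 libraries. Gata6 overlaps another gene. The endoderm markers summed to 13.4 RPKM in CM WT and 5.10 in CM KO, and their part in the level of Gata6 was not tested.

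Sarcomere genes mostly lacked a shared region. Myh6, Ttn, Myom2 and Nebl had no called region at their ends, although Nebl has a shared region over a promoter, and Actc1, Tnnt2 and Myh7 had one that was not called in all libraries. Myh6 stood at 0.00430, 0.00285, 1.27 and 0.0322 RPKM, and Ttn, the giant spring of the sarcomere, at 0.641, 0.491, 2.18 and 0.140. Of the 7 genes with a shared region, Tpm1, a tropomyosin that non-muscle cells also use, had the most RNA, at 2.06, 1.94, 7.03 and 5.96 RPKM. Apob, from the endoderm list, was called over 1210, 1088 and 1207 bp in ESC WT, where it stood at 0.0383 RPKM, and over 930, 1133 and 886 bp in CM WT, where it stood at 10.3.

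Shared regions had a shorter called length in CM than in ESC libraries. The mean called length per region was 647 ± 9.72 bp in WT ESC and 644 ± 5.36 in KO ESC, and 555 ± 17.3 in WT CM and 525 ± 11.1 in KO CM (SD, n = 3). CM libraries were lower by 106 bp on average (two-sided exact permutation test within genotype over 400 arrangements, p = 0.005, the smallest possible, adjusted over 15 tests 0.0125), and all 6 CM libraries were below all 6 ESC libraries. The KO difference was −16.8 bp within cell type (exact permutation p = 0.045, adjusted 0.0818), which did not pass. The labels do not say that replicates were grown separately, so these p-values measure the spread between libraries, which may be technical. Among regions called in 11 libraries, the missing library was of CM KO for 46.1% and of CM WT for 42.4%. These tests therefore hold only for the regions that the rule keeps.

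Called length differed more away from gene ends. At gene ends the mean was 801 ± 8.68 bp in WT ESC and 797 ± 6.06 in KO ESC, and 741 ± 24.3 in WT CM and 695 ± 9.06 in KO CM. Elsewhere it was 543 ± 10.4, 540 ± 4.96, 428 ± 12.6 and 410 ± 12.6 bp (all SD, n = 3). The log2 ratio of gene ends to other places was 0.56 in both ESC groups, 0.79 in CM WT and 0.76 in CM KO, and its cell type difference of 0.22 was higher in 6 of 6 CM libraries (exact permutation p = 0.005, adjusted 0.0125). This ratio was chosen after the library values were seen.

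The number of summits followed, with a difference between genotypes in opposite directions. It was 1.562 ± 0.00138 per region in WT ESC and 1.583 ± 0.00784 in KO ESC, and 1.491 ± 0.0174 in WT CM and 1.436 ± 0.0126 in KO CM (SD, n = 3). In ESC all KO libraries were above all WT libraries and in CM all were below. The difference of the KO effect between CM and ESC was −0.0757 (two-sided exact permutation p = 0.005, adjusted 0.0125), and CM KO libraries also had the fewest intervals.

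Shared regions took a larger part of each CM list. They held 38.9% ± 2.22 of called intervals in WT ESC and 38.4% ± 0.889 in KO ESC, and 49.9% ± 2.99 in WT CM and 60.6% ± 2.48 in KO CM, and 57.2%, 57.2%, 66.9% and 76.8% of called bp. Because the rule puts a nearly equal number of intervals of every list into these regions (43533 to 44428), these shares follow the length of the lists and are given as a description, with no test. When every list was shortened to the same length, the difference between cell types in the share of intervals was 1.73 percentage points, beside 16.6 with the full lists. Of regions called in 3 of 3 libraries of a group, 47.2% were shared in WT ESC and 47.3% in KO ESC, and 65.5% in WT CM and 79.4% in KO CM.

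**Figure D5:**
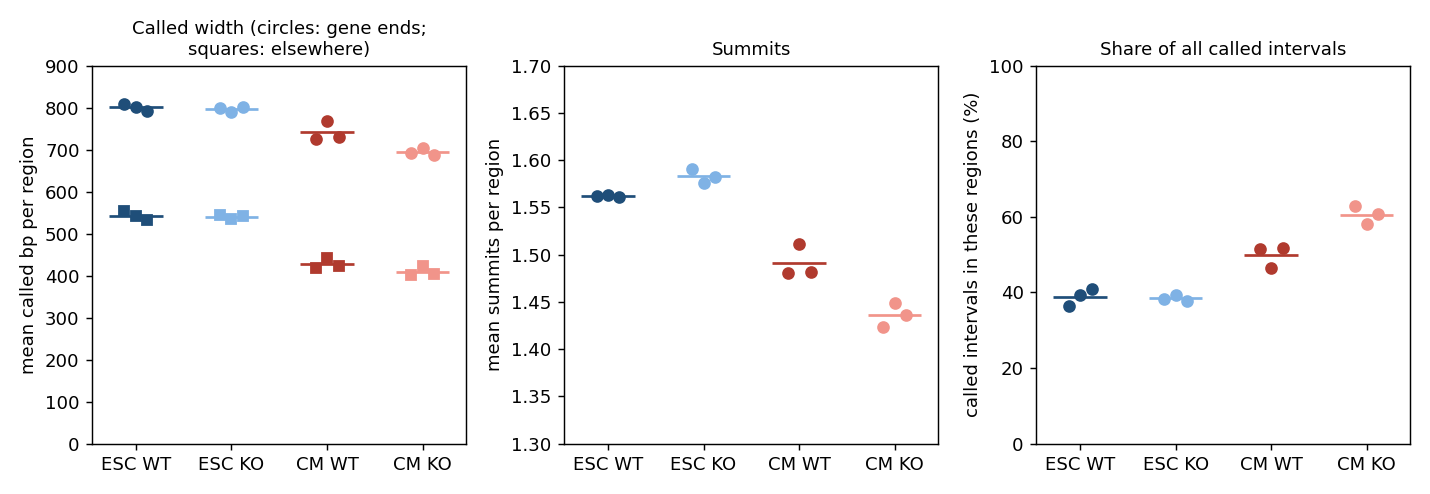
Mean called length per shared region at gene ends (circles) and elsewhere (squares), mean summits per region (axis from 1.3), and share of called intervals that lie in shared regions, for each library, with bars at the group mean. CM libraries lie below ESC libraries in the first 2 panels and above them in the last.

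Single regions were then compared by limma with trend on log2(called bp + 100), fitted to all 193427 regions with Benjamini-Hochberg adjustment over them and libraries scaled to the same median over shared regions. On this relative scale, wider means wider than the typical shared region of the library. In CM WT against ESC WT 9848 shared regions were wider and 3424 narrower (24.1% and 8.38% of them), where 14.6% and 17.6% of all regions tested were called. Between CM KO and ESC KO 7286 were wider and 1892 narrower in CM KO, where 5.08% and 12.4% of all regions were called. Without scaling the directions turn, with 1141 wider and 10955 narrower in WT and 211 and 9747 in KO, so only the relative change can be read. The mitochondrial region chrMT:11019-15681 averaged 4652 bp in ESC WT and 4656 bp in CM WT. It was still called wider, with a log2 change of 0.325 with scaling and 0.0014 without. All regions tested include those that every library of a group lacks, which the rule keeps out of the shared regions. Nothing is therefore read from the distance to the background.

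Relative widening was found at gene ends. In CM WT against ESC WT 6856 of 16534 shared regions at gene ends were wider and 690 narrower, while of the 24336 elsewhere 2992 were wider and 2734 narrower. The counts for CM KO against ESC KO were 5397 and 410 at gene ends and 1889 and 1482 elsewhere. Without scaling, 16.2% of regions at gene ends and 34.0% elsewhere were narrower in the WT comparison, and 17.7% and 28.0% in the KO comparison.

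Between genotypes the rule itself leaves out regions that a KO or WT library lacks, so the counts are a description of the regions that remain and nothing is read from their distance to the background. In ESC KO against ESC WT 93 were wider and 73 narrower (0.228% and 0.179%), where 1.08% and 1.42% of all regions were called. In CM KO against CM WT 788 were wider and 685 narrower (1.93% and 1.68%), where 1.43% and 4.96% of all regions were called, and without scaling the counts were 460 and 1135. The KO effect differed between CM and ESC for 763 shared regions, or 1.87% of them, where 6.68% of all regions were called.

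Phb2, a prohibitin of the inner mitochondrial membrane, had the largest relative loss from ESC WT to CM WT. Its region at chr6:124717792-124719643 was called over 1337, 1259 and 1215 bp in WT ESC and 681, 825 and 1237 bp in KO ESC, and 174, 247 and 182 bp in WT CM and 729, 738 and 718 bp in KO CM. CM WT libraries were below all others. The log2 change was −1.93 ± 0.16 (SE, limma adjusted p = 5.96e-06) in CM WT against ESC WT and 1.57 ± 0.16 (adjusted p = 5.23e-05) in CM KO against CM WT. No base was called in all 12 libraries at once at Rpl10l, a ribosomal protein gene copy that was also low in CM WT, with 703, 714 and 691 bp in WT ESC and 634 to 768 in KO ESC, and 166, 172 and 257 in WT CM and 632 to 730 in KO CM. Its log2 change in CM KO against CM WT was 1.47 ± 0.13 (adjusted p = 1.88e-05).

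Emp1, an epithelial membrane protein, widened most in CM WT. Its region at chr6:135362354-135363306 was called over 163, 158 and 206 bp in WT ESC and 500, 240 and 424 bp in KO ESC, and 712, 838 and 858 bp in WT CM and 352, 387 and 368 bp in KO CM. The change in CM WT against ESC WT was 1.95 ± 0.18 on the log2 scale (limma adjusted p = 9.95e-06), and no base was called in all 12 libraries at once. Adamts12, an extracellular protease, was likewise widest in CM WT, with 1304, 1093 and 1061 bp, beside 295 to 439 bp in ESC WT, 387 to 624 bp in ESC KO and 252 to 428 bp in CM KO. It was narrower in CM KO than in CM WT by a log2 change of −1.58 ± 0.19 (adjusted p = 0.000171).

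Sulf2, a sulfatase of heparan sulfate, widened in both genotypes. It was called over 319, 534 and 281 bp in ESC WT and 314, 381 and 359 bp in ESC KO, and over 852, 1465 and 1057 bp in CM WT and 1091, 1234 and 1147 bp in CM KO. ESC and CM libraries do not overlap, and the log2 changes were 1.64 ± 0.19 (limma adjusted p = 5.59e-05) in WT and 1.81 ± 0.19 (adjusted p = 4.54e-05) in KO. Eef1a1, the translation elongation factor, showed the same order, with 515 to 602 bp in WT ESC and 567 to 797 in KO ESC, and 1192 to 1521 in WT CM and 1407 to 1455 in KO CM.

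Further large changes between cell types were found at genes of several kinds. Wider in CM WT than in ESC WT were Cox14 and Gpd1 (1 region) and Rin2, with log2 changes of 1.80 and 1.60, and narrower were Chad, Gdf7 and Ldah (1 region), Gpx4 and Sbno2 (1 region) and Fbxo40, with −1.69, −1.58, −1.53 and −1.46. In CM KO against ESC KO the further wider regions were at Rps12, Rcor2 and Cox4i1, with 1.46, 1.42 and 1.29, and the narrower at Taf12, Rpl10a, Hnrnpa1, Taf1d and Rpl11, with −1.67, −1.58, −1.44, −1.43 and −1.38. At Cox14 and Gpd1, Gdf7 and Ldah, Hnrnpa1 and Taf1d no base was called in all 12 libraries, so libraries called different stretches there. Limma adjusted p-values of these ran from 7.12e-06 at Rps12 to 0.00809 at Taf1d.

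Between genotypes in ESCs, the region of Pla2g4a, a phospholipase that releases arachidonic acid, was called over 178, 189 and 232 bp in WT and 562, 557 and 476 bp in KO (log2 change 1.06 ± 0.17, limma adjusted p = 0.00447). The groups do not overlap, and CM libraries stood at 203 to 377 bp. Eif3b, a translation initiation subunit, had 685, 642 and 639 bp in ESC WT and 288, 340 and 360 bp in ESC KO (−0.79 ± 0.12, adjusted p = 0.00254). Sox7, a factor of endoderm and endothelium, had 696, 620 and 434 bp in ESC WT and 164, 303 and 297 bp in ESC KO (−0.91 ± 0.20, adjusted p = 0.0384). The other named calls were wider at Zfp300, Mgat4e, Pcdh15 and Rsad2 and narrower at Eva1b, Tcaim and Atp2c2, with log2 changes from −0.73 to 1.01.

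Regions at listed genes lie at gene ends, where 41.5% of shared regions were wider and 4.17% narrower in CM WT than in ESC WT, and 32.6% and 2.48% in CM KO than in ESC KO. In the WT comparison the relative counts were 37 wider and 10 narrower of 58 regions at ribosomal protein genes, 25 and 0 of 39 at spliceosome genes, 24 and 2 of 43 at RNA polymerase II genes and 19 and 0 of 30 at proteasome genes. They were 15 and 0 of 33 at respiratory chain genes, 18 and 1 of 34 at cell cycle genes, and 12 and 0 of 14 at CTCF and cohesin genes. Pluripotency genes had 8 wider and 6 narrower of 34, and Hox genes 2 and 4 of 17. For these 9 lists in the same order, the KO comparison gave 27 and 6, 19 and 0, 16 and 2, 12 and 0, 13 and 0, 12 and 0, 11 and 0, 10 and 1, and 1 and 0. Without scaling the WT counts became 16 and 15, 1 and 0, 2 and 2, 0 and 1, 2 and 0, 0 and 6, 0 and 1, 0 and 14, and 0 and 8. At ribosomal genes both directions occurred within a single gene: of the regions at Rpl10a ends, 1 was wider (1.25) and 1, shared with Tead3, narrower (−1.36).

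In the KO contrasts the lists held few calls. No region at a listed gene was called in ESC KO against ESC WT by limma, with or without scaling. In CM KO against CM WT, Tdgf1, Tcl1 and Prdm14 of the pluripotency list were wider (log2 changes 0.20, 0.70 and 0.70, limma adjusted p = 0.00876, 0.0247 and 0.0326), as were Mesp1 (0.48) and Ezh2 (0.13), and Taf12 was narrower (−1.13). The ESC markers summed to 5.55 RPKM in CM KO and 3.22 in CM WT, and their part in the pluripotency regions was not tested. Tcl1 and Taf12 kept their call without scaling, and the other 4 did not.

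The shares of genes whose chromatin RNA differed between cell types were lower with a shared region than without one. The rule asks for a call in both cell types, and the filter below admits a gene through either library. This order is therefore not independent of these choices, and nothing is read from it. Genes with a shared region were 4757 of the 5091 tested in WT and 4469 of the 4763 tested in KO. Their shares are therefore bound to lie near those of all genes. Genes were counted with at least 1 RPKM in either library, as at least 2-fold different on RPKM + 1, which understates low genes. In CM WT against ESC WT 141 of 4757 such genes were higher and 200 lower (2.96% and 4.20%), where 3.56% and 4.56% of all genes tested were. For CM KO against ESC KO 147 of 4469 were higher and 60 lower (3.29% and 1.34%), where 3.63% and 1.57% of all were. Genes without a shared region had 40 higher and 32 lower of 334 in the WT comparison (11.98% and 9.58%). In the KO comparison they had 26 higher and 15 lower of 294 (8.84% and 5.10%). Among genes listed in both libraries of the WT comparison, 126 of 4740 with a shared region were higher and 198 lower. Without a shared region, 30 of 324 were higher and 32 lower. These comparisons are of single libraries and carry no p-value.

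Between genotypes the counts were small. In ESC KO against ESC WT 4 of 4221 genes with a shared region were higher and 5 lower, where 0.134% and 0.134% of all genes were. In CM KO against CM WT 9 of 4171 were higher and 13 lower, where 0.269% and 0.583% of all were. Of the 26 genes lower in CM KO among all genes, 13 had no shared region, where genes without one were 288 of the 4459 tested. Among genes listed in both libraries, these were 10 of 21. The filter admits a gene through either library, so nothing is read from these counts.

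The genes named for the lowest and highest ratios differed in part between WT and KO. Lowest in CM WT against ESC WT were Tdgf1, Zfp42, Dppa5a, Fgf4 and Tet1, the last an enzyme that oxidises methylcytosine (11.8 RPKM in ESC WT and 1.45 in CM WT). Highest were Col1a1, the chain of type I collagen (15.5 RPKM against 0.149), Apob (10.3 against 0.0383), Dlk1 (5.84 against 0.102), Serpinh1, a collagen chaperone (7.68 against 0.560), and Amot (4.92 against 0.0773). In CM KO against ESC KO the lowest were Spp1, Cobl, Zfp42, Tdgf1 and Fgf4 and the highest Amot, Cd24a, Car4, Peg3 and Igfbp4. Tet1, Cobl and Peg3 overlap another gene, so their reads may be shared.

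Grb10, an imprinted adaptor that restrains growth signals, was lower in KO in both cell types. It stood at 3.55 RPKM in ESC WT and 0.194 in ESC KO, and at 7.05 in CM WT and 0.380 in CM KO, and it overlaps another gene. Lefty1, an inhibitor of Nodal, stood at 0.836 RPKM in ESC WT and 3.45 in ESC KO, and Cdkn1c, an imprinted inhibitor of the cell cycle, at 2.50 in CM WT and 0.0992 in CM KO. Col1a1 was also among the lowest ratios in CM KO against CM WT (4.34 against 15.5 RPKM). It is itself 1 of the 4 fibroblast markers, which with Col1a1 included summed to 6.60 RPKM in CM KO and 23.8 in CM WT. That sum is mostly Col1a1 and gives no separate evidence, and the part of fibroblast content was not tested. Grcc10 was higher in KO in both cell types, with 146 RPKM against 61.6 in ESC and 80.4 against 37.6 in CM.

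Positions of m6A lay mostly in genes with a shared region. These genes held 91.9% of the listed positions of protein-coding genes in WT ESC (14935 positions) and 91.6% in KO ESC, and 90.2% and 91.7% in WT CM and KO CM. At least 1 position was listed for 34.5%, 34.4%, 48.1% and 31.8% of genes with a shared region in these 4 groups, for 7.42%, 7.61%, 14.7% and 8.54% of genes with another region, and for 3.41%, 3.36%, 5.37% and 3.18% of genes with none. All 4 lists named 3310 of the 13684 genes with a shared region (24.2%), and none named 6542 (47.8%).

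Within ranges of RNA level the classes lay closer together than over all genes. Between 1 and 2 RPKM in ESC WT, 64.8% of genes with a shared region, 64.4% with another region and 73.9% with none had a position, and in CM WT 82.9%, 88.0% and 89.4%. Between 0.1 and 0.5 RPKM the shares were 19.3%, 16.1% and 22.9% in ESC WT and 37.0%, 36.0% and 39.2% in CM WT. In these 4 comparisons genes with a shared region were not above genes with none, while the RNA level differs between the classes. Gaps were larger in CM KO and ran both ways. There the shares were 41.2%, 55.5% and 56.7% between 0.5 and 1 RPKM, and 76.6%, 81.6% and 64.5% between 2 and 5.

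Both KO groups still listed m6A. In ESC, 4125 genes with a shared region had a position in both genotypes, 592 in WT only and 579 in KO only. In CM, 4278 had one in both, 2298 in WT only and 79 in KO only. Over all protein-coding genes the counts in the same order were 4456, 645 and 634 in ESC and 4665, 2594 and 92 in CM. Most of these genes have a shared region, so nothing particular to shared regions is read from the counts. Whether depth of the m6A libraries differs is not given, and its part in the CM difference was not tested.

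The genes with a shared region and the most positions had annotated spans from 68722 to 400775 bp. In ESC WT they were Gm21992 with 66 positions, Tet1 with 60, Jarid2, a subunit of Polycomb complex 2, with 59, Jmjd1c with 41 and Spen, an RNA-binding repressor, with 39. In CM WT they were Grb10 with 59, Macf1 with 52, Gpc3 with 49, Fgfr2 with 42 and Dst with 40. Grb10 had 5 positions in ESC WT and 0 in both KO groups, where its RNA was also low. The other 9 of these genes had positions in all 4 lists, such as Tet1 with 60 in ESC WT and 61 in ESC KO, and Jarid2 with 59 and 58. Ttn, which has no called region at its ends, had 17 positions in WT ESC and 14 in KO ESC, and 151 in WT CM and 1 in KO CM.

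For the printed promoters the m6A lists differed by gene. Tbx20 had 0 positions in both ESC groups, 8 in CM WT and 5 in CM KO, and Apob had 0, 0, 35 and 27. Dusp1 had 3 in each of the 4 groups. Mettl3 had 0 in each, and Psmb6 and Myh6 had 1 in CM WT alone.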

How the data were processed

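The samples were 12 ATAC-seq libraries (3 per group) and 1 chromatin RNA and 1 chromatin m6A sample per group. Per the submitters' processing notes, the build was mm10 and the tools were MACS2, Bowtie, HISAT2, cutadapt and Picard, without versions or roles. The authors deposited 1 interval list per library, with a score, a fold over local background and −log10 p and q values per summit, calculated before deposit by their peak caller. RPKM values per gene were deposited by the authors without counts, so the depth behind them is unknown. The m6A lists hold a gene, a position and a motif, and only the gene was used.

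Intervals of all libraries were merged at 1 bp of overlap in Python 3.11.15 (pandas 2.3.3, numpy 2.4.6, scipy 1.17.1). Called bp per region were compared by limma 3.58.1 in R 4.3.3, on log2(bp + 100) with the libraries scaled to an equal median over shared regions, at an adjusted p of 0.05. Library values were compared by two-sided exact permutation tests. RNA ratios used log2(RPKM + 1). Genes, gene spans and promoters came from RefSeq tables of GRCm38.p6, with promoters on chromosome 18 not used here. The text names the widest and strongest regions, up to 5 regions per direction and contrast, the 5 highest and lowest RNA ratios, the 5 genes with most m6A positions, and genes of 20 lists. The regions and lists were chosen with earlier results of these data known.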

Additional observations from a re-analysis of the deposited data

Results flagged for a closer look

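The KO effect on the number of summits per shared region differed between the cell types by −0.0757 (CM minus ESC; two-sided exact permutation p = 0.005, adjusted 0.0125). All 3 ESC KO libraries were above the ESC WT libraries and all 3 CM KO libraries below the CM WT libraries.

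The KO effect on called width differed between CM and ESC for 15 of the 76 regions named at genes (limma interaction, adjusted over all regions, log2 scale). It did so for 763 of all 40870 shared regions and for 12919 of all 193427 regions. The KO effect was lower in CM at Adamts12 by −1.98 (limma adjusted p = 0.000571), Rin2 by −1.71, Emp1 by −1.66, Zfp300 by −1.52, Pla2g4a by −1.22, Rsad2 by −1.03 and Taf12 by −0.998. It was higher in CM at Phb2 by 2.02 (adjusted p = 0.000249), Rpl10l by 1.46, Gdf7 and Ldah by 1.45, Fbxo40 by 1.33, Chad by 1.21, Slc26a9 by 1.03, Atp2c2 by 0.84 and Eif3b by 0.77. At Fbxo40 the ESC effect was −1.03 and the CM effect 0.30, while at Pla2g4a they were 1.06 and −0.17. Most of these regions were named for a large change in 1 of the contrasts of the same fit. Their number, sizes and p-values are therefore not independent of that choice, and nothing is read from the number.

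The median log2 ratio of chromatin RNA between KO and WT was −0.10 in ESC and 0.13 in CM over genes with a shared region, a difference of 0.23. It was not tested, with 1 library per group, and the medians over all genes were −0.10 and 0.13 as well.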

How the results depend on the processing

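Deviations of called length in libraries with the same replicate number correlated between −0.0139 and 0.0165 over 18 pairs. A shift of a whole library does not enter this correlation, so it cannot decide whether the numbers pair the libraries. With the replicate number as a replicate block the smallest exact permutation p is 0.03125, and no library test passes (adjusted p = 0.0781). Differences are the same with this block, at −105.7 bp, −0.109 summits and 16.6 and 14.7 percentage points of intervals and bp and a log2 ratio of 0.22 between cell types, and −0.0757 summits for the KO effect between them. The genotype difference passed with equal list lengths (−16.1 bp, 0.737 and 1.87 points) and at −log10 q of at least 5 (−19.0 bp, 5.73 and 5.29 points), as did the interaction of the log2 ratio (−0.0408 and −0.0465). Leaving out 1 library gave −20.0 to −11.9 bp and 4.24 to 5.43 points of bp for genotype, and 8.44 to 11.02 points of bp and 9.43 to 12.4 points of intervals for the interaction. The genotype difference passed without ESC WT replicate 3 (−19.3 bp, exact permutation adjusted p = 0.0107; 5.43 points of bp, 0.0469), and the interactions of both shares passed without ESC WT replicate 1 (0.0281). The shares follow list length, so nothing is read from the calls on them. Without 1 library, the median width was 725 to 730 bp, the share at gene ends 39.7% to 40.4%, and regions narrower in ESC KO numbered 70 to 113.

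The share at gene ends was 40.9% at −log10 q of at least 2, 47.98% at 5, 44.3% with equal lists, and 36.1% and 49.0% with windows of 500 and 2500 bp. Median width was 803 bp at −log10 q of at least 5, 730 with 150 bp of overlap and 776 with equal lists. Without scaling, wider and narrower regions numbered 1141 and 10955 (CM WT against ESC WT), 211 and 9747 (CM KO against ESC KO) and 460 and 1135 (CM KO against CM WT). Equal lists gave 4605 wider in CM KO than in ESC KO, and a fit of regions called in at least 6 libraries gave 36 and 34 between ESC genotypes. Without scaling the log2 change turned to −0.0373 at Tfcp2l1, −0.20 at Tdgf1, −0.11 at Utf1, −0.0399 at Sall4 and −0.11 at Isl1 in CM WT, and to −0.0570 at Tbx3, −0.0708 at Tdgf1, −0.0939 at Utf1, −0.0388 at Sall4, −0.14 at Fbxo15 and −0.0800 at Trim71 in CM KO. Of 1319 alternative values for named widths, 1067 kept direction and call and 241 lost the call.

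RNA medians with a pseudocount of 0.1 RPKM were −0.40, −0.0461, −0.15 and 0.20 for CM WT against ESC WT, CM KO against ESC KO, ESC KO against ESC WT and CM KO against CM WT, with 361, 395, 12 and 32 genes higher and 722, 178, 45 and 26 lower. With no filter they were −0.0072, 0.0225, −0.0277 and 0.0186, and with an equal median ratio −0.0060, −0.0019, 0.00038 and 0.0013. Equal medians gave 251 higher and 88 lower in CM WT, 8 and 2 in ESC KO and 3 higher in CM KO against CM WT, and genes listed in both tables gave 2 lower in ESC KO. Genes with m6A were 12.97%, 13.2%, 20.1% and 10.9% at 3 or more positions, 33.1%, 33.0%, 46.4% and 30.7% at 2500 bp, 35.8%, 35.7%, 49.4% and 32.9% with equal lists, and at 500 bp 35.2% in ESC KO and 49.0% in CM WT. Causes of these differences were not tested. Interval lists give no read counts, so width changes below the caller's resolution cannot be seen.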
